A study of Homo sapiens with 54 samples.

Results

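Cytosolic ribosomal protein genes encode the proteins that, together with ribosomal RNA, build the large and the small subunit of the cytosolic ribosome. They were taken by symbol from the protein-coding genes of chromosomes 1 to 22, which gave 73 of 19126 genes. Of these, 40 belong to the large subunit (RPL symbols), 30 to the small subunit (RPS symbols and RPSA) and 3 to the stalk of the large subunit (RPLP0, RPLP1 and RPLP2). The X-linked genes RPL10, RPL36A, RPL39 and RPS4X and the paralogs with symbols ending in L lie outside this choice.

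Open chromatin was mapped by ATAC-seq, in which a transposase cuts accessible DNA and tags it with sequencing adapters, in bulk cells of 2 cancer lines. The 6 groups were PC3 control, PC3 at day 1, PC3 at day 10, MDA-MB-231 control, MDA-MB-231 at day 1 and MDA-MB-231 at day 10, where the controls were untreated and the others were cells that had survived cisplatin, collected 1 day or 10 days after its removal. PC3 is a prostate cancer line from a bone metastasis, MDA-MB-231 is a triple-negative breast cancer line, and cisplatin is a platinum drug that crosslinks DNA. Each group had 3 biological replicates with 1 deposited peak list each, 18 lists in all, made from 54 sequenced samples. The sources used here do not give the drug dose. In bulk cells, a site open in fewer cells and a site less open in every cell cannot be told apart.

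Ribosomal protein genes are transcribed by RNA polymerase II in every growing cell, and most of their products are needed in equal numbers. Their human promoters are known for short nucleosome-free regions, for binding sites of ETS-family factors and YY1, and for a start at a C followed by a run of pyrimidines, the 5′ terminal oligopyrimidine (TOP) motif, through which mTOR controls the translation of these mRNAs. Several free ribosomal proteins, among them RPL5 and RPL11, bind MDM2 and so stabilise p53 when ribosome assembly is disturbed, and inherited loss of one copy of genes such as RPS19 causes Diamond-Blackfan anaemia.

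The RefSeq promoter table (GRCh38.p14) held a start site for 58 of the 73 genes and for 15101 of all protein-coding genes. A C at the first transcribed base followed by at least 4 pyrimidines was present in 40 of the 58 promoters (69.0%), against 4.57% of all promoters. A run of at least 7 pyrimidines within 20 bases of the start was present in 51 (87.9%), against 24.0% of all. On either strand of the 300 bases from 250 before to 50 after the start, the ETS-type motif CCGGAAG was found in 20 of 58 (34.5%) and in 14.4% of all promoters, the YY1-type motif ATGGCGG in 11 (19.0%) and in 7.62%, and TCTCGCG in 14 (24.1%) and in 4.87%. The motifs GGGCGG (53.4% and 58.9%), CCAAT (34.5% and 36.0%) and TATAAA (8.62% and 9.71%) occurred at similar shares in ribosomal protein promoters and in all promoters. The median GC content was 59% in the ribosomal protein promoters and 63% in all promoters, and the median ratio of observed to expected CpG was 0.914 and 0.767. These are matches of letters, with no test, and say nothing of binding. The following stretches run 5′ to 3′ from 150 bases before to 20 bases after the RefSeq start. They show 3 genes with the highest peak areas (RPL38, RPL36, RPL28), 2 with low ones (RPL11, RPL37A), 3 whose open length changed (RPL31, RPL9, RPL15) and 3 without any peak (RPS3A, RPL7A, RPS25), and capitals mark CCGGAAG and the pyrimidine run that begins with C at the first transcribed base.
RPL38, chr17:74203528-74203697, plus strand: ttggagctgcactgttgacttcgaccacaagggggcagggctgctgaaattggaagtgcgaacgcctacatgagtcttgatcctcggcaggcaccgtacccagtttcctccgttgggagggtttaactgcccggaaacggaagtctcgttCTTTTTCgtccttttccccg
RPL36, chr19:5690145-5690314, plus strand: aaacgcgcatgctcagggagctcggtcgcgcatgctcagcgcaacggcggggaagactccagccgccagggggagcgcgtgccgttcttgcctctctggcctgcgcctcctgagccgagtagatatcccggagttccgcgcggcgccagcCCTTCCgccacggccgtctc
RPL28, chr19:55385782-55385951, plus strand: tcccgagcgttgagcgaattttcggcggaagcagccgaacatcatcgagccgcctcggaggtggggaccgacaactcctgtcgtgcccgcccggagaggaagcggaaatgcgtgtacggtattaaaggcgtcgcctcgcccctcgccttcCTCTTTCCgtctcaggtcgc
RPL11, chr1:23691629-23691798, plus strand: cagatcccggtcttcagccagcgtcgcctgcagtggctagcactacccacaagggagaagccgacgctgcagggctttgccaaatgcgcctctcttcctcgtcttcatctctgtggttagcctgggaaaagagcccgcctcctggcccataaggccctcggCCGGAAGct
RPL37A, chr2:216498694-216498863, plus strand: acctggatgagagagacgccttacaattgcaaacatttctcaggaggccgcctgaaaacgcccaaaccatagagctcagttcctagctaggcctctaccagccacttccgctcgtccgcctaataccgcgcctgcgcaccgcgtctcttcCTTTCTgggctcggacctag
RPL31, chr2:101002139-101002308, plus strand: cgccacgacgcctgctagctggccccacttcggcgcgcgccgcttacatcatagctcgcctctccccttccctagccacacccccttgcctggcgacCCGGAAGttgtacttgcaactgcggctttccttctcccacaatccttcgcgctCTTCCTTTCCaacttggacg
RPL9, chr4:39458903-39459072, minus strand: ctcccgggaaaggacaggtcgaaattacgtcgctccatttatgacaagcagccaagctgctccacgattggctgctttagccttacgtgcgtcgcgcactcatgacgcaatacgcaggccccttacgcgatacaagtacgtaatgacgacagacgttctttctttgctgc
RPL15, chr3:23916395-23916564, plus strand: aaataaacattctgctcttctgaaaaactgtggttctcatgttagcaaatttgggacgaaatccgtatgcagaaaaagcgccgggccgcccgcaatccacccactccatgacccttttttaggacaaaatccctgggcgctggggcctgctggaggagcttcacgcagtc
RPS3A, chr4:151099478-151099647, plus strand: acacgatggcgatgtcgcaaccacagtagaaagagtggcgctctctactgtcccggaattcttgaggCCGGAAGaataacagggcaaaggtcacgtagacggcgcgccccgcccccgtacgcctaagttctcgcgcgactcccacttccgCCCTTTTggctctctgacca
RPL7A, chr9:133348068-133348237, plus strand: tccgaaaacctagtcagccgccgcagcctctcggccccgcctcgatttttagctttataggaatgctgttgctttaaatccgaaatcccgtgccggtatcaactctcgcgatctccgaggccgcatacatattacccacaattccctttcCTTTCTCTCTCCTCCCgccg
RPS25, chr11:119018324-119018493, minus strand: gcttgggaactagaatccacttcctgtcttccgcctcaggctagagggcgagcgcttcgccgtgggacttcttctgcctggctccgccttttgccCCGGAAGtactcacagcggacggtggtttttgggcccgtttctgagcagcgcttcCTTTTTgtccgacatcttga
The pyrimidine run at the first base is present in genes at the top and at the bottom of the area order and in the genes without a peak. RPL11, RPL9 and RPL15 lack it at the RefSeq start, and that start is the outermost one annotated, so it need not be the one used in these cells. The area order takes the highest-area peak at either gene end, which for RPL38 lay far from the start shown.

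The deposited lists held from 82515 to 165736 peaks. They hold no read counts, so the depth behind each list is unknown. Labels were checked at genes known to mark the lines: AXL, a receptor tyrosine kinase of mesenchymal-like breast cancer cells, had a median area percentile of 53.8 in PC3 controls and 99.8 in MDA-MB-231 controls, and KLK3, which encodes prostate-specific antigen, had a peak in every PC3 list and in no MDA-MB-231 list. The blood-cell marker PTPRC had no peak in any list, while CD3E, the T-cell marker, had one in all 18.

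A gene was counted as having a peak when a peak overlapped the window of 1 kb on either side of one of its 2 ends. Nearly all ribosomal protein genes had such a peak in every library. Of the 73 genes, 65 (89.0%) had one in all 18 lists, against 57.8% of all protein-coding genes, and 71 of 77 mitochondrial ribosomal protein genes (92.2%), which encode the separate ribosome of mitochondria, had one in all. The large subunit had 38 of 40 genes in all lists, the small subunit 24 of 30 and the stalk 3 of 3. In single lists, from 65 to 67 of the 73 genes had a peak.

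RPS2, RPS3A, RPS9, RPS18 and RPS25 of the small subunit and RPL7A of the large subunit had no peak in any list (8.22% of the 73 genes, against 23.5% of all genes). Each lay in a stretch in which no list of either line had a peak. The stretch spanned 812 kb with 33 protein-coding genes around RPS18 (chr6:32668636-33481088), 354 kb around RPS3A, 266 kb with 11 genes around RPL7A, 151 kb with 12 genes around RPS2, 111 kb with 6 genes around RPS25 and 53.0 kb around RPS9. A closed promoter and a stretch without usable reads cannot be told apart in such places. The lists also carried from 69 to 170 peaks each on alternate and patch sequences, whose part in these gaps was not tested.

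RPL19, of the large subunit, had a peak in 17 lists and lacked one in PC3 day 10 replicate 1 alone. No ribosomal protein gene gained presence, from none of the 3 lists of one group to all 3 of the other, and in MDA-MB-231 none lost it in this way. Over all genes, gains occurred in 0.852% at PC3 day 1, 1.51% at PC3 day 10, 1.27% at MDA-MB-231 day 1 and 1.29% at MDA-MB-231 day 10, and losses in 0.0784% at PC3 day 1, 0.57% at PC3 day 10, 0.141% at MDA-MB-231 day 1 and 0.314% at MDA-MB-231 day 10. From day 1 to day 10 gains and losses occurred in 0.282% and 0.476% of genes in PC3 and 0.136% and 0.46% in MDA-MB-231, and between PC3 control and MDA-MB-231 control in 2.72% and 3.12%.

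The area of a peak, the deposited score in which width and height are combined, was ranked within each list. For each gene the highest-area peak at its ends was taken, and the area percentile gives its place among all 19126 genes of that list, with genes without a peak sharing the lowest rank. The median area percentile of the ribosomal protein genes was 68.9 ± 1.09 in PC3 control, 65.6 ± 1.05 at PC3 day 1 and 67.8 ± 0.784 at PC3 day 10. It was 65.2 ± 2.73 in MDA-MB-231 control, 63.9 ± 1.66 at day 1 and 62.5 ± 0.939 at day 10 (mean ± SD of the list medians, n = 3 lists each). Ranked only among genes that had a peak in the list, the median lay between 47.6 and 56.2, close to the middle of all such genes. These genes thus had a gene-end peak more often than all protein-coding genes, while their areas among genes with a peak were near the middle. Both values are for either gene end and not for the promoter alone.

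**Figure D1:**
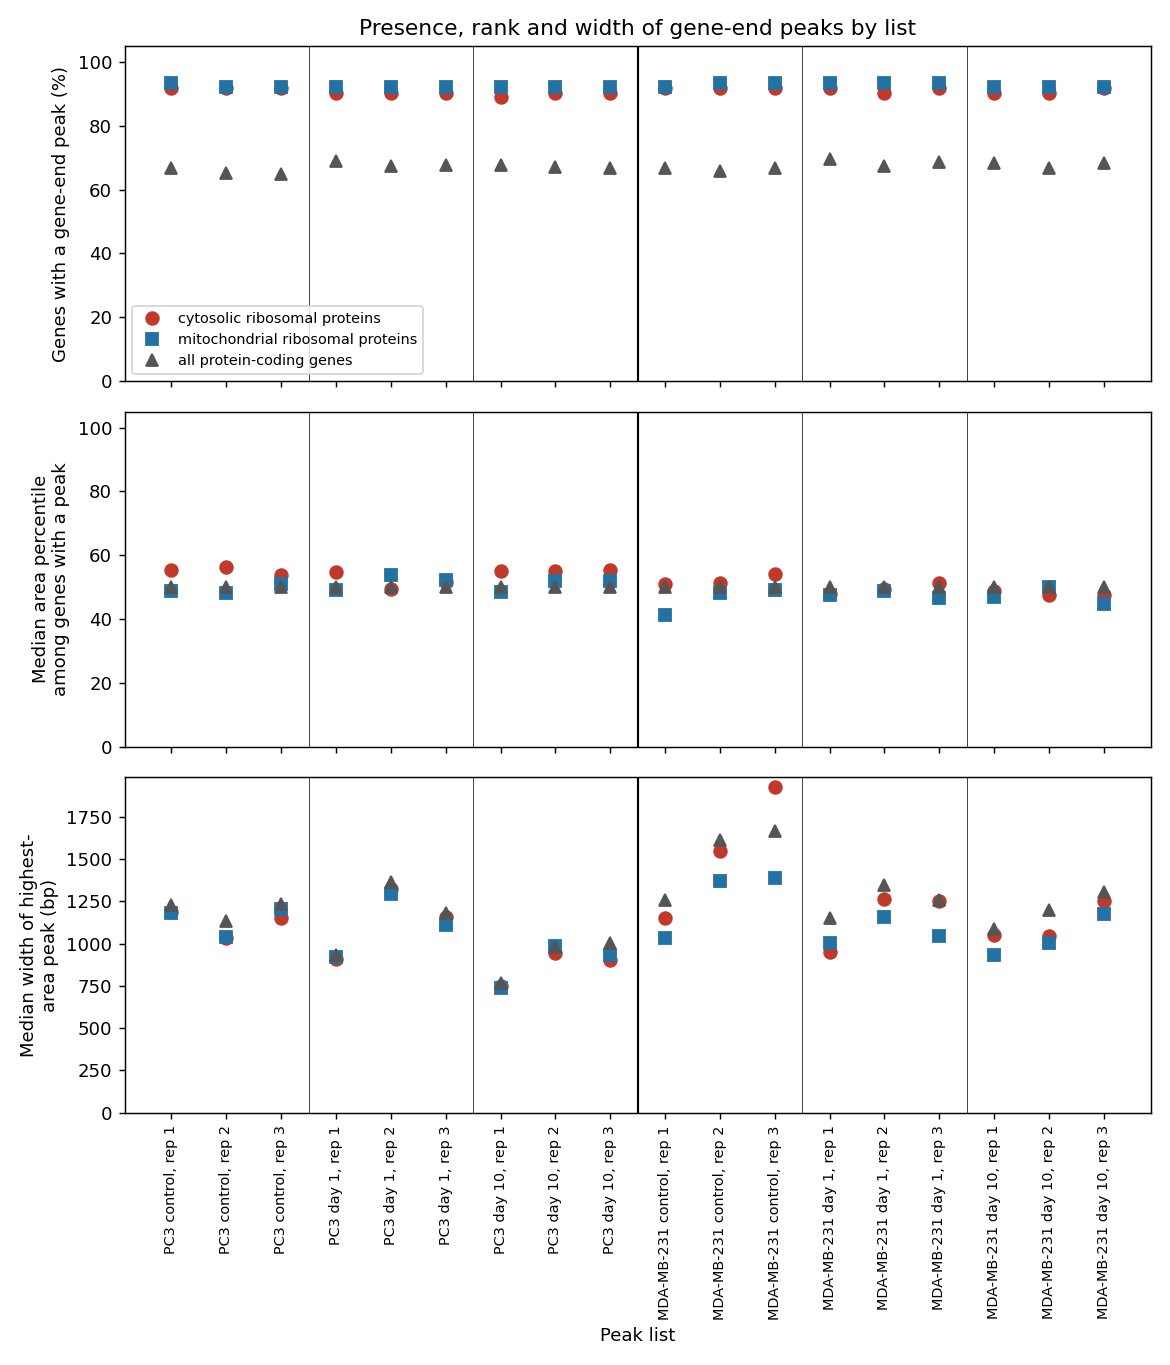
Share of genes with a gene-end peak (top), median area percentile among genes with a peak (middle) and median width in bp of the highest-area peak (bottom), by list, for cytosolic ribosomal protein genes (circles), mitochondrial ribosomal protein genes (squares) and all protein-coding genes (triangles). Presence stands near 90% in every list for both ribosomal lists and between 65.0% and 69.7% for all genes, while areas and widths lie close to those of all genes.

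The width of the highest-area peak at either gene end followed that of all genes, while at the start alone it was narrower. The median width of the highest-area peak was 1125 ± 82.0 bp in PC3 control, 1130 ± 208 bp at day 1 and 867 ± 102 bp at day 10, where all genes had 1201 ± 55.7, 1160 ± 216 and 916 ± 131 bp. In MDA-MB-231 it was 1542 ± 385 bp in control, 1157 ± 179 bp at day 1 and 1117 ± 117 bp at day 10, where all genes had 1515 ± 221, 1252 ± 97.7 and 1198 ± 110 bp. The 2 widest medians came from MDA-MB-231 control replicates 2 (1546 bp) and 3 (1925 bp), in which all genes also had their widest medians. With windows at the start alone, the median width of the 58 genes with a known start was below that of all genes in every list. At MDA-MB-231 day 1 it was 882, 1007 and 949.5 bp, against 1162, 1352 and 1256.5 bp. At PC3 day 10 it was 682, 932 and 766 bp, against 780, 992 and 996 bp. The genes themselves are short, with a median length of 4799 bp against 24477 bp for all protein-coding genes, so the windows at both ends cover much of many of them.

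The members spread widely around the median. Large subunit genes had a median of 72.3 over their median area percentiles, small subunit genes 55.8, the stalk 79.6 and mitochondrial ribosomal protein genes 62.9. The highest 5 were RPL23A with a median of 99.7 over the 18 lists, RPL38 with 99.3, RPL8 with 99.0, RPL36 with 99.0 and RPL28 with 97.7, all proteins of the large subunit. Of the 73 genes, 10 had a median above 90, a share of 13.7%, against 8.31% of all genes. The lowest with peaks in at least 17 lists were RPL19 with 41.2, RPL11 with 44.1, RPL37A with 45.1, RPL23 with 46.0 and RPS23 with 47.7. The order was stable across lists for some genes and not for others. RPL11 stayed between 39.9 and 48.2 in all 18 lists. RPL38 stayed between 99.3 and 99.9 in the 9 PC3 lists but ranged from 58.1 to 99.2 in the 9 MDA-MB-231 lists. RPL10A, of the large subunit, ranged from 60.7 to 99.8, and RPS16, of the small subunit, from 46.7 to 94.9.

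**Figure D2:**
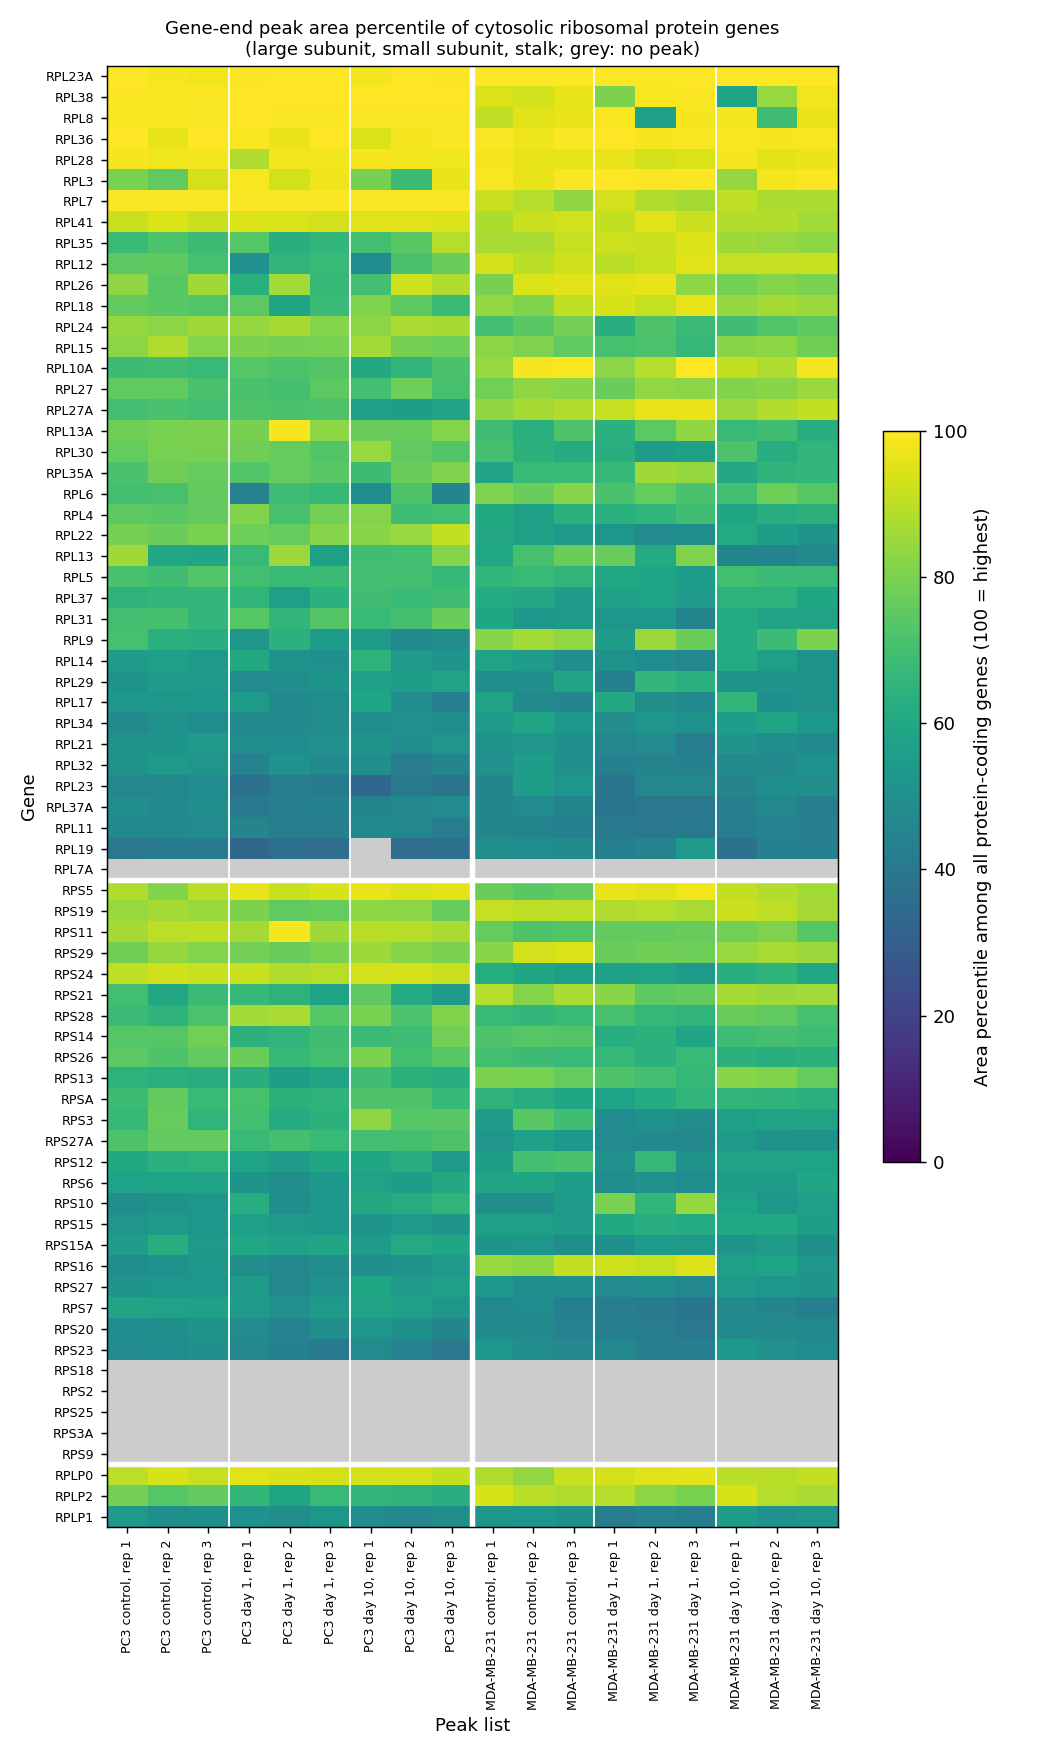
Area percentile of the highest-area gene-end peak (colour, from 0 to 100) of the ribosomal protein genes described here (down the page, by subunit and falling median) in the 18 lists (across); grey cells have no peak. RPL23A is bright in every list, and RPL7A and 5 small subunit genes have no peak.

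RPSA, the small subunit protein also described as laminin receptor, had area percentiles of 68.5, 76.1 and 67.6 in PC3 control and 65.1, 62.1 and 58.7 in MDA-MB-231 control. The stalk proteins, which recruit translation factors to the ribosome, differed among themselves. RPLP0 lay between 90 and 93.9 in PC3 control and 87.9, 83.8 and 91.4 in MDA-MB-231 control. RPLP1 had 53.9, 49.7 and 50.1 in PC3 control and 52.9, 52.6 and 50.3 in MDA-MB-231 control. RPLP2 had 79.1, 73.8 and 76.0 in PC3 control and 93.9, 89.5 and 88.0 in MDA-MB-231 control. RPLP2 was the one of the 3 whose control groups did not overlap, and RPLP0 and RPLP1 stood far apart in every list.

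The widest peaks belonged to RPL36 (median 5492 bp over the lists), RPL23A (5348 bp) and RPL3 (4048 bp). Among the narrowest were those of RPS27 (545 bp) and RPL11 (570 bp). RPL36 shares its window with an end of LONP1 and RPL23A with an end of TLCD1, so their peaks are not those of 1 gene. The same limit holds for many other members that have an end of another gene within 1 kb. Among them are RPL18 (FAM83E and SPHK2), RPL35 (WDR38 and ARPC5L), RPL12 (LRSAM1), RPLP2 (PIDD1), RPS27A (CLHC1 and MTIF2) and RPL32 (CAND2). RPL38, RPL3, RPLP0 and RPL27A had the summit of their highest-area peak far from the start, at medians of 9366, 8474, 6325 and 6113 bp. Further cases were RPS10, RPL6, RPL4 and RPL17, at 9700, -7412, 6976 and 5161 bp. In RPL35A, RPL35, RPL13, RPS16 and some other genes the summit lay near the start in some lists and far from it in others. In such lists the rank of these genes describes another site at the locus.

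Near the start itself the peaks were sharply placed. In 50 genes with a start-site peak in all 18 lists, the summit had a median position of -85.5 bp relative to the start. In 43 of them (86%) it lay between 250 bases before and 50 bases after the start, against 66.5% of 8709 genes of the genome. RPS19 with -578 bp, RPS27A with 406.5 bp and RPL15 with 545 bp were the farthest. For RPL15 this places the open site downstream of the RefSeq start whose sequence is shown above. Areas were also set against the motifs. Genes with the first-base pyrimidine run had a median area percentile of 69.2 (35 genes with a peak), and those without it 68.8 (18 genes), and genes with CCGGAAG had 63.6 (17 genes) against 69.1 without it (36 genes), as descriptions with no test. These areas are of the highest-area peak at either gene end, so in some genes they describe a peak away from the promoter.

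**Figure D3:**
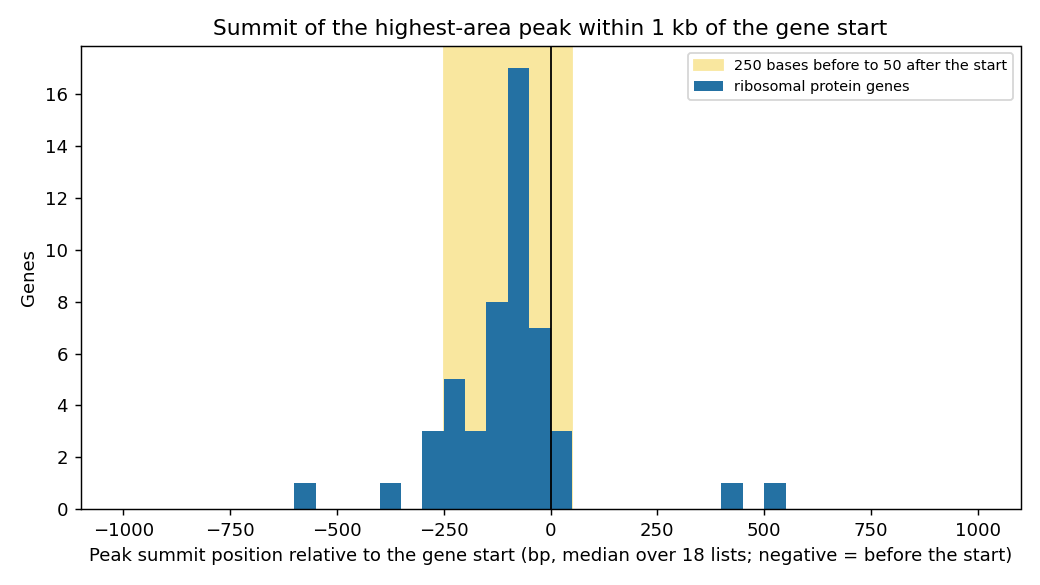
Position of the peak summit relative to the gene start in bp (across; bins of 50 bp) for the 50 ribosomal protein genes with a start-site peak in all 18 lists, with the number of genes up the page. The shaded band from 250 bases before to 50 after the start holds 43 of them.

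For the comparison of groups, the bp covered by peaks within 1 kb of the gene ends were divided by a factor per list (median of ratios over genes), and a limma model of log2(length + 500 bp) was run on 12763 genes, those that reached 500 bp of open length in 3 or more lists. Of the 73 genes, 66 passed this filter. The 6 genes without a peak were among those that did not. Adjusted p-values below are Benjamini-Hochberg values over all 12763 genes, called at 0.05. They measure the spread between biological replicates, and the labels do not say whether these were separate cultures. Lengths printed per list are unscaled.

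At day 1, PC3 survivors had 1 ribosomal protein gene with a changed length. It was RPL15, of the large subunit, and it was higher, where 4.06% of all genes were called higher and 0.627% lower. RPL15 had 1306, 1470 and 1389 bp in PC3 day 1 lists, against 1059, 1049 and 1084 bp in PC3 control lists. The groups did not overlap, and the log2 change was 0.26 ± 0.04 (SE, limma adjusted p = 0.00224). In the other direction no ribosomal protein gene passed, while 11 of 66 had an unadjusted limma p under 0.05 in either direction. The median log2 change of the 66 genes was -0.04, against 0.00 for all genes tested.

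At day 10, PC3 survivors had 8 ribosomal protein genes with a shorter and 3 with a longer open length. These are 12.1% and 4.55% of the 66 genes, near or below the 10.4% of all genes called lower and the 9.97% called higher. RPL9, a large subunit protein gene (chr4:39454124-39458922, minus strand), fell the most. It had 514, 521 and 522 bp in PC3 day 10 lists, against 1458, 1344 and 1359 bp in PC3 control lists. Its log2 change was -0.80 ± 0.12 (SE, limma adjusted p = 0.000271), and the PC3 day 1 lists, with 732, 1670 and 1020 bp, varied widely. LIAS, a lipoic acid synthesis gene, has an end within 1 kb of an RPL9 end, so the site is shared. With start windows alone the log2 change of RPL9 was -0.78 (limma adjusted p = 0.000511).

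RPLP1, of the stalk, had 425, 552 and 809 bp at day 10 and 1229, 943 and 1256 bp in control (log2 change -0.51, limma adjusted p = 0.0141). RPL34, of the large subunit, had 300, 329 and 330 bp at day 10 and 687, 726 and 672 bp in control (log2 change -0.48, limma adjusted p = 0.0107). In both the day 10 lists lay below every control list. RPL11, which binds MDM2, had 303, 429 and 439 bp at day 10 and 768, 660 and 768 bp in control (limma adjusted p = 0.0252), and RPL13A, RPL31 and RPL23, also of the large subunit, had log2 changes of -0.37, -0.37 and -0.36. The scaled RPL31 lengths of the groups overlapped, and its adjusted p rose to 0.133 without PC3 day 10 replicate 3 (log2 change -0.26).

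The genes that rose in PC3 at day 10 were RPL24 (log2 change 0.37), RPL28 (0.33) and RPL15 (0.32), all of the large subunit. RPL15 had 1200, 1389 and 1291 bp at day 10, against 1059, 1049 and 1084 bp in control (limma adjusted p = 0.000143). RPL24 had 1341, 1723 and 1653 bp, against 1322, 1145 and 1297 bp (limma adjusted p = 0.0208), and the groups did not overlap. The RPL24 call was lost with no scaling (log2 change 0.24, limma adjusted p = 0.176), with total-length scaling (0.05, 0.706) and with 2 kb windows (0.14, 0.559). RPL28 had 1814, 2379 and 1997 bp, against 1942, 1559 and 1725 bp (limma adjusted p = 0.0371). Its unscaled groups overlapped, and its direction turned with scaling to the total covered length of each list (log2 change -0.01, limma adjusted p = 0.984).

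Of these rises, those of RPL15 and RPL24 lay at the far end of the gene and not at the start. At the start of RPL15, the covered length was 917, 1028 and 996 bp at PC3 day 10, against 1059, 1049 and 1084 bp in PC3 control. At its far end the 3 PC3 day 1 lists had 280, 367 and 361 bp and the 3 PC3 day 10 lists 283, 361 and 295 bp, while the 3 PC3 control and all 9 MDA-MB-231 lists had 0 bp. With windows at the start alone the log2 change of RPL15 at PC3 day 10 was 0.06 (limma adjusted p = 0.338). The peak spanned chr3:23923823-23924189 in PC3 day 1 replicate 2 and had its summit 589 to 661 bp inside the annotated end of RPL15, within the span of NKIRAS1, a gene that encodes an inhibitor of NF-kappa-B signalling and overlaps the whole of RPL15. By area it stood between the percentiles of 13.6 and 34.3 of all peaks in those lists. A far-end peak in all 6 PC3 survivor lists and none of the other 12 was found at 27 of 14249 genes longer than 2000 bp with a known start (0.189%), and RPL15 was the 1 ribosomal protein gene among 53. RPL24 had 353, 426 and 361 bp at its far end at PC3 day 10, against 0 bp in the PC3 control lists, and 988, 1297 and 1292 bp at its start, against 1322, 1145 and 1297 bp.

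**Figure D4:**
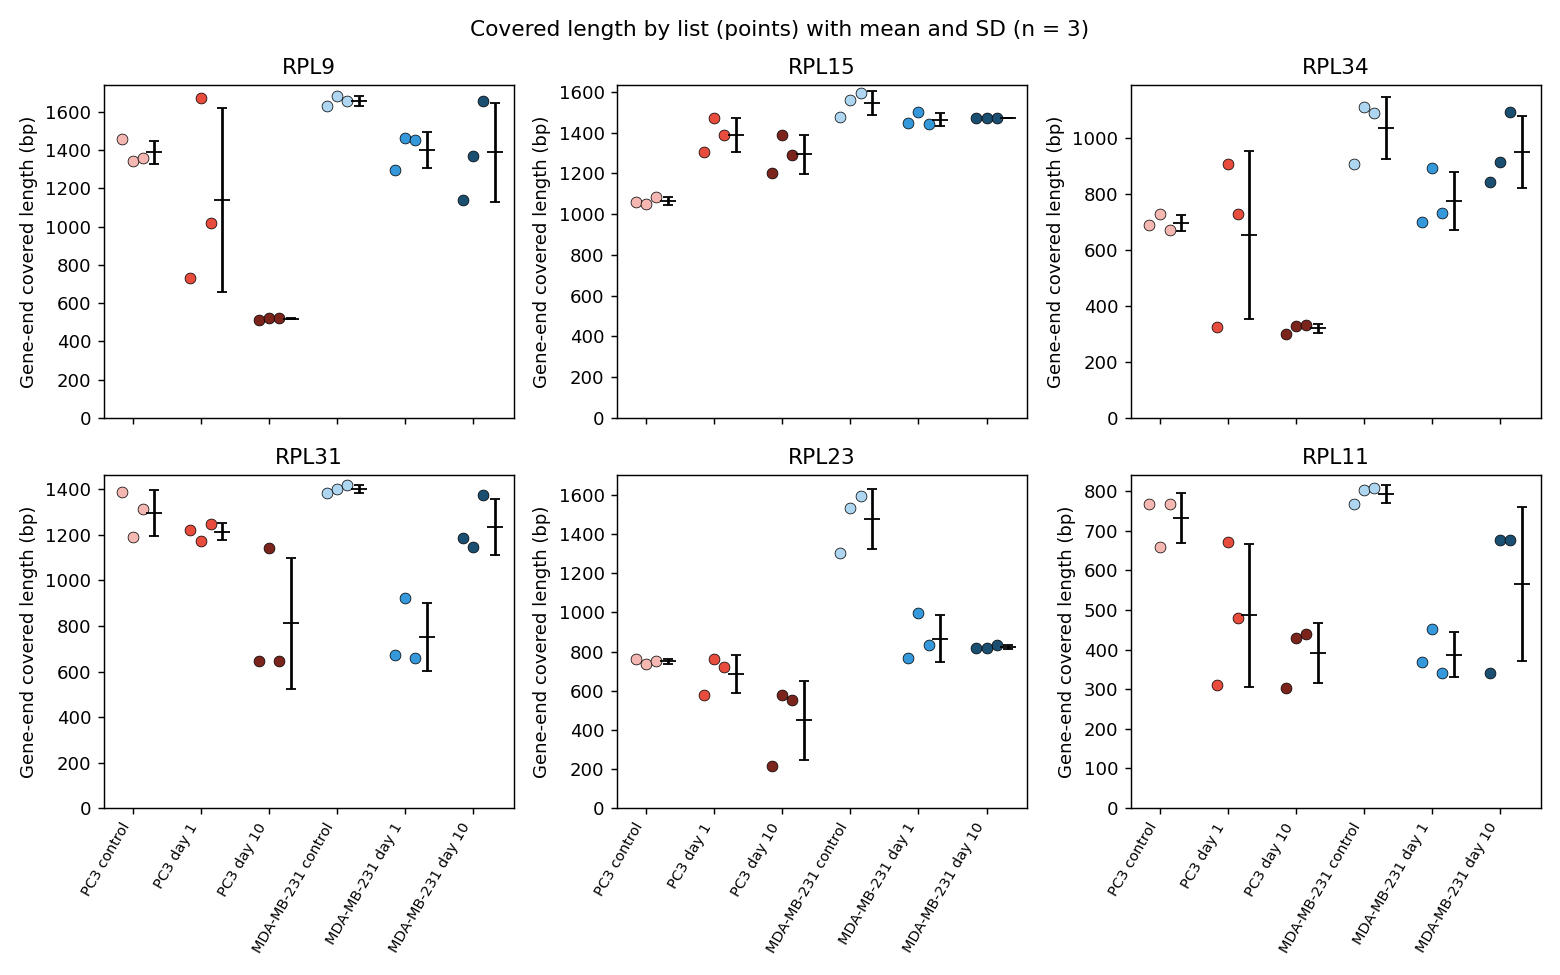
Gene-end covered length in bp of 6 ribosomal protein genes by group, with 1 point per list and the mean with SD (n = 3 lists) beside it. RPL9 falls to 514 to 522 bp in the PC3 day 10 lists and RPL15 has at least 1200 bp in all 6 PC3 survivor lists against at most 1084 bp in the PC3 controls.

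Far-end gains from 0 of 3 control lists to 3 of 3 treated lists occurred at 3 of 53 ribosomal protein genes at PC3 day 1 (RPL12, RPL15 and RPL19, against 1.89% of all 14249 genes) and at 3 at PC3 day 10 (RPL6, RPL15 and RPL24, against 2.9%). In MDA-MB-231 no ribosomal protein gene gained a far-end peak in this way at day 1 (background 2.88%) or day 10 (1.51%), and RPSA, RPL29 and RPL32 lost theirs at day 10 (0.344%). RPSA had 0 bp at its far end in the 3 MDA-MB-231 day 10 lists, against at least 226 bp in each of the 3 control lists. RPL29 had 1, 14 and 1061 bp in control, so that 1 list held nearly all of what was lost. From day 1 to day 10 of MDA-MB-231, RPL32 and RPSA lost theirs (1.55% of all genes) and none was gained (0.218%). No far-end peak was lost at PC3 day 1 (0.0702%), PC3 day 10 (0.323%) or MDA-MB-231 day 1 (0.225%), and none was gained or lost between day 1 and day 10 of PC3 (0.4% and 0.161%). A far-end peak in all 18 lists was more common among ribosomal protein genes (30.2%) than among all genes (9.68%). Ribosomal protein genes are shorter, with a median length of 4799 bp against 24477 bp. In a short gene a wide start peak can reach the far-end window. Gene length was not accounted for in any far-end share given here.

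Between day 10 and day 1 of PC3, 2 genes were lower at day 10, among them RPL9, where 4.22% of all genes were called lower and 1.38% higher. RPL9 had 514, 521 and 522 bp at day 10 and 732, 1670 and 1020 bp at day 1, and its log2 change was -0.55 ± 0.12 (SE, limma adjusted p = 0.0133). This comparison shares its day 10 lists with that against control.

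In MDA-MB-231 at day 1, 9 ribosomal protein genes fell and none rose. They are 13.6% of the 66 genes, against 2.7% of all genes called lower and 5.09% called higher. RPS7, a small subunit protein that binds MDM2, had 403, 668 and 378 bp in MDA-MB-231 day 1 lists, against 1055, 1390 and 1248 bp in MDA-MB-231 control lists (log2 change -0.74 ± 0.16 SE, limma adjusted p = 0.0112). RPL31 had 671, 924 and 659 bp at day 1, against 1384, 1404 and 1418 bp in control (log2 change -0.53 ± 0.11 SE, limma adjusted p = 0.00917). In both every day 1 list lay below every control list.

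RPL23 and RPL11, both of which bind MDM2, also fell at MDA-MB-231 day 1. RPL23 had 766, 997 and 835 bp at day 1 and 1303, 1534 and 1596 bp in control (log2 change -0.45, limma adjusted p = 0.0178). The RPL23 call depended on what was measured, with a log2 change of -0.14 in 500 bp windows (limma adjusted p = 0.694), -0.02 in 2 kb windows (0.988) and 0.02 for whole peak widths (0.996). RPL11 had 368, 452 and 342 bp at day 1 and 768, 803 and 809 bp in control (log2 change -0.47, limma adjusted p = 0.0212). Others called were RPL13 (-0.63), RPL37A (-0.55), RPL21 (-0.43) and RPS27A (-0.22), the last of which encodes a fusion of a small subunit protein with ubiquitin. The RPL13 call was lost with no scaling (limma adjusted p = 0.0661), in 2 kb windows (log2 change -0.22, 0.381) and for whole peak widths (-0.29, 0.487). It was also lost when any 1 control or day 1 list was left out (limma adjusted p from 0.0894 to 0.126). With start windows alone 7 of the 9 have a known start, and all 7 kept their call. The number of calls fell to 1 without day 1 replicate 3 and to 2 without control replicate 2. The log2 changes of the 9 genes stayed between -0.66 and -0.21 and between -0.69 and -0.21, against -0.74 to -0.22 with all lists, and the limma adjusted p-values reached 0.126 and 0.100.

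At MDA-MB-231 day 10, 2 ribosomal protein genes were lower, among them RPL23, and none was higher, where 1.86% of all genes were called lower and 2.26% higher. RPL23 had 817, 818 and 833 bp at day 10, against 1303, 1534 and 1596 bp in control (log2 change -0.45, limma adjusted p = 0.0254). In 500 bp windows the log2 change of RPL23 at day 10 was -0.12 (limma adjusted p = 0.656). Without control replicate 3, or without day 10 replicate 1 or 2, no gene was called. From day 1 to day 10, 2 genes were higher at day 10, where 0.666% of all genes were called higher and 2.41% lower. RPL31 had 1185, 1146 and 1377 bp at day 10, against 671, 924 and 659 bp at day 1 (log2 change 0.51 ± 0.11 SE, limma adjusted p = 0.02). With the replicate block, in a comparison where same-numbered lists deviated together, RPL31 was not called (limma adjusted p = 0.0518). Without day 1 replicate 3 or day 10 replicate 3 no gene was called. With no scaling the split was 1 higher and 1 lower.

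**Figure D5:**
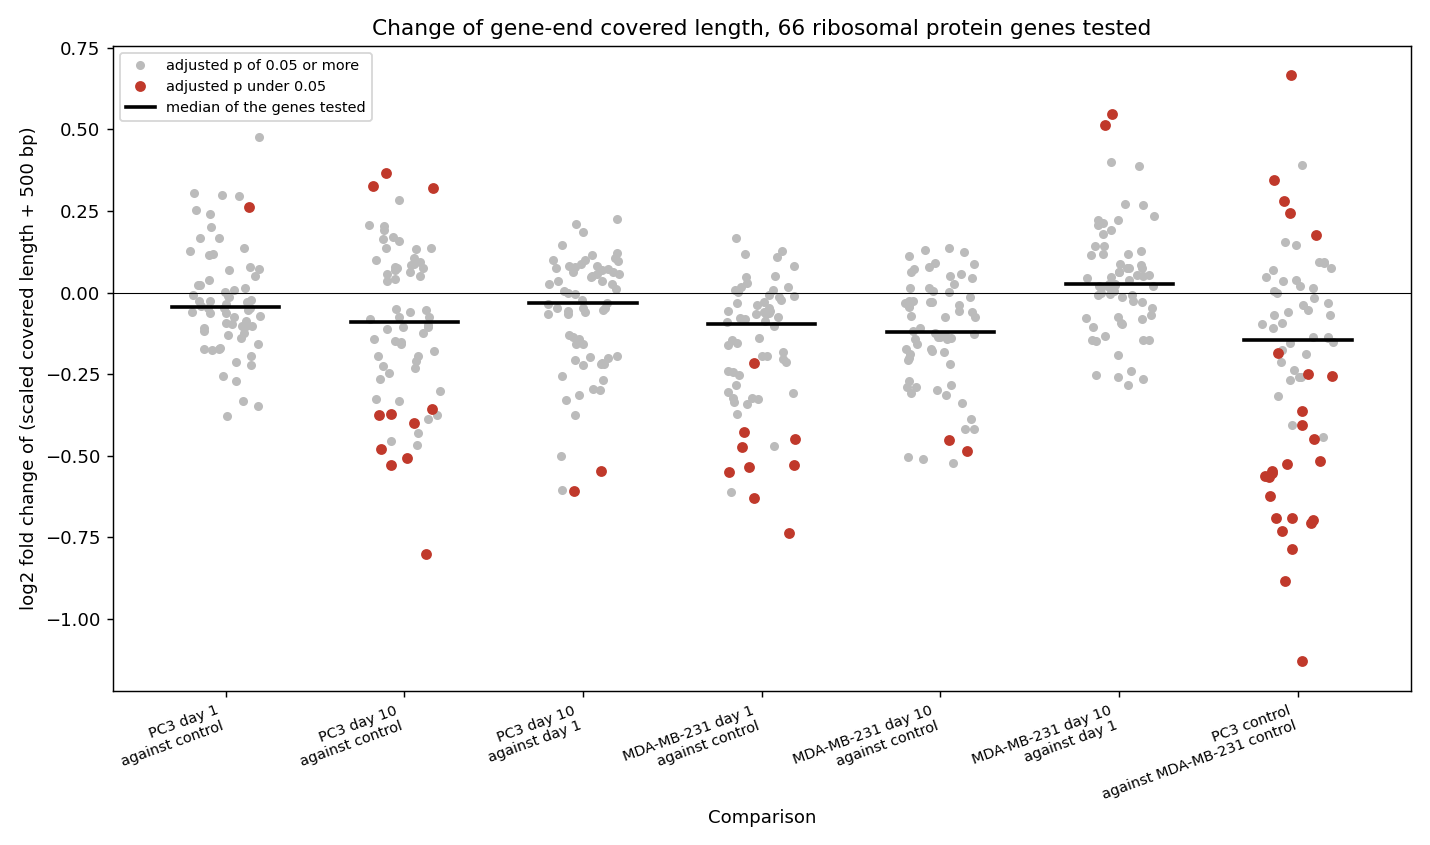
log2 change of gene-end covered length (up the page) of the 66 ribosomal protein genes tested in 7 comparisons (across), with called genes in red, other genes in grey and the median as a bar. In both lines at day 1 and day 10 against control the median lies below 0, between -0.04 and -0.12. At PC3 day 1 the 1 called gene lies above 0, and in the other 3 of these comparisons most or all called genes lie below it.

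The 66 genes had negative median changes in survivors of both lines. Against control, 42 of 66 log2 changes were negative at PC3 day 1, 39 at PC3 day 10, 53 at MDA-MB-231 day 1 and 49 at MDA-MB-231 day 10. The medians were -0.04, -0.09, -0.10 and -0.12, where all genes tested had medians between 0.00 and 0.01. They stayed negative with no scaling and with scaling to total covered length. With total-length scaling the median of all genes itself moved to -0.19 at PC3 day 1, -0.27 at PC3 day 10, -0.17 at MDA-MB-231 day 1 and -0.10 at MDA-MB-231 day 10. The split of higher and lower calls then became 0 and 21 at PC3 day 1, 0 and 47 at PC3 day 10, 0 and 39 at MDA-MB-231 day 1 and 0 and 17 at MDA-MB-231 day 10, and with no scaling it was 1 and 0 at PC3 day 1, 1 and 14 at PC3 day 10, 0 and 10 at MDA-MB-231 day 1 and 0 and 7 at MDA-MB-231 day 10. These counts stand without the share of all genes under the same scaling and are not a result about these genes. Mitochondrial ribosomal protein genes had medians of -0.03, -0.05, -0.06 and -0.04, with 2 higher and 1 lower, 4 and 5, 3 and 1, and 0 and 2 of 70 genes called. These are 2.86% and 1.43%, 5.71% and 7.14%, 4.29% and 1.43%, and 0% and 2.86%. All genes had 4.06% and 0.627%, 9.97% and 10.4%, 5.09% and 2.7%, and 2.26% and 1.86%.

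Of the 11 genes tied to Diamond-Blackfan anaemia or to p53, 2 (RPL11 and RPL23) fell at PC3 day 10. They are 18.2%, against 10.4% of all genes. At MDA-MB-231 day 1, 4 fell (RPL11, RPL23, RPS7 and RPS27A), 36.4% against 2.7% of all genes. The RPL23 call there depended on the window. RPS19, which had 1379, 1567 and 1878 bp in PC3 day 10 lists and 1838, 1653 and 1701 bp in PC3 control lists, and 3333, 3605 and 2812 bp in MDA-MB-231 day 1 lists and 3126, 3649 and 3815 bp in MDA-MB-231 control lists, passed in neither. RPL5 had 711, 838 and 684 bp at PC3 day 10 and 1240, 872 and 1113 bp in control without passing, and its groups overlapped after scaling. RPS14, RPS26, RPL35A, RPS10 and RPS24 were called in no comparison of survivors with control.

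Whether the change differed between the lines was tested as an interaction in the same fit. At day 1 no ribosomal protein gene passed (12 of 66 had an unadjusted limma p under 0.05, and 1.23% of all genes were called in the positive and 1.2% in the negative direction). At day 10, 2 passed, where 3.7% of all genes were called in the positive and 3.89% in the negative direction. For RPL9 the PC3 change minus the MDA-MB-231 change was -0.73 ± 0.17 on the log2 scale (SE, limma adjusted p = 0.0168). MDA-MB-231 had 1138, 1370 and 1655 bp at day 10 and 1629, 1680 and 1658 bp in control. For RPL15 the difference was 0.25 ± 0.06 (SE, limma adjusted p = 0.0269). All 3 MDA-MB-231 day 10 lists had 1473 bp, against 1478, 1561 and 1596 bp in control. The 9 genes called in MDA-MB-231 at day 1 were thus not shown to respond differently in PC3.

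More ribosomal protein genes were called between the 2 untreated lines than in any comparison of survivors with control, with 26 against at most 11. With total-length scaling this order did not hold, with 37 between the lines, 47 at PC3 day 10 and 39 at MDA-MB-231 day 1. Over all genes the order in the main fit was the same as for the ribosomal protein genes. Between the lines 20.9% of all genes were called lower and 15.4% higher, against 10.4% and 9.97% at PC3 day 10. In PC3 control, 21 ribosomal protein genes had a shorter and 5 a longer open length than in MDA-MB-231 control, 31.8% and 7.58% of the 66 genes, where 20.9% of all genes were called lower and 15.4% higher. With no scaling the split was 29 lower and 2 higher, and with total covered length 35 and 2, as the median of all genes moved to -0.14 and -0.16. The largest difference was at RPS16, of the small subunit, which had 606, 483 and 826 bp in PC3 control lists, against 1689, 2026 and 3212 bp in MDA-MB-231 control lists (log2 change -1.13 ± 0.18 SE, limma adjusted p = 0.000131). RPL18, of the large subunit, had 1766, 1457 and 1792 bp in PC3, against 3324, 3429 and 3509 bp in MDA-MB-231 (log2 change -0.70 ± 0.07 SE, limma adjusted p = 1.15e-06). RPS19 had 1838, 1653 and 1701 bp, against 3126, 3649 and 3815 bp (log2 change -0.69 ± 0.08 SE, limma adjusted p = 6.99e-06), and RPL35 and RPL12, of the large subunit, had log2 changes of -0.78 and -0.73.

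Much of this lay at the far ends. PC3 control lists lacked a far-end peak that all 3 MDA-MB-231 control lists had at 8 of 53 genes (RPL6, RPL12, RPL19, RPL32, RPS12, RPS15, RPS16 and RPSA), against 3.03% of all genes, and had one that MDA-MB-231 lacked at RPL22 alone, against 2.11%. RPS16 had 0 bp at its far end in the 3 PC3 control lists, against 959, 925 and 1958 bp in MDA-MB-231 control, and RPL12 had 0 bp against 1214, 1346 and 1457 bp. With start windows alone 12 genes were called, 8 lower and 4 higher in PC3. RPS16 (log2 change -0.30, limma adjusted p = 0.0449) and RPS19 (-0.39, limma adjusted p = 0.013) were among them, and RPL12 (-0.14, limma adjusted p = 0.381) and RPL18 (-0.12, limma adjusted p = 0.0988) were not.

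The genes with longer lengths in PC3 control were RPL22 (log2 change 0.67), RPS24 (0.34), RPL36 (0.28), RPL38 (0.24) and RPS27A (0.18). RPL22, a large subunit protein that is mutated in some cancers, had 1932, 1584 and 2293 bp in PC3, against 980, 1331 and 1207 bp in MDA-MB-231. Of these, 723, 313 and 789 bp in PC3 lay at the far end, against 0 bp in MDA-MB-231. RPS24, a Diamond-Blackfan anaemia gene of the small subunit, had its whole difference at the start, with 1194, 1032 and 1268 bp in PC3, against 802, 937 and 1031 bp in MDA-MB-231 (log2 change 0.34 ± 0.06 SE, limma adjusted p = 0.000169). The numbers of DNA copies of these loci in the lines are not given in the sources used here, and their part in these differences was not tested.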

How the data were processed

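ATAC-seq peak lists of 18 biological replicates (6 groups of 3) were used. Each covers 3 experimental replicates, and how these were combined is not stated in the labels. Per the submitters' processing notes, the tools were Genrich 0.6.2 and Bowtie2 2.3.5.1, beside SAMtools 1.6, FastQC 0.12.1 and Picard, with GRCh38. The score of each peak, as deposited by the authors, is its area, with a minimum of 200 in every list. The −log10 p-value of each peak, as deposited by the authors, was not used for ranking. No read totals were in the lists, so the precision rests on the spread between lists.

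From the lists, peaks overlapping by at least 1 bp the windows of 1000 bp on either side of both gene ends were taken for 19126 genes of a RefSeq GRCh38.p14 table (Python 3.11.15, pandas 2.3.3, numpy 2.4.6). Covered length was scaled by median of ratios, and log2(length + 500 bp) was compared with limma 3.58.1 (R 4.3.3, with a trend of variance on mean) in 1 model of all 6 groups with 12 residual degrees of freedom. The scripts were tested on simulated data. A fold change on this scale understates the change of short lengths. Start sites and strands came from the RefSeq promoter table. The members and lists were chosen with earlier results of these data known. Named genes were those called in a comparison (up to 10 each way), lacking a peak in a list, among the 5 highest or lowest by area or the 3 widest or narrowest, RPSA and the stalk, and those tied to disease or p53. Genes named for a far-end peak or for their range of ranks were chosen after their values were seen.

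Same-numbered replicates deviated together, with every correlation above 0.1, for MDA-MB-231 day 1 against control (0.168 to 0.366) and for day 10 against day 1 of PC3 (0.114 to 0.253) and MDA-MB-231 (0.101 to 0.384). The labels do not say what a shared number means. Alternatives were other scalings, added lengths, windows, peak subsets, filters, single-line fits, a replicate block and each list left out. Sex chromosomes were not analysed. The results of some members are not reported here one by one, and all counts and medians include them.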

Additional observations from a re-analysis of the deposited data

Results flagged for a closer look

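The day 10 change differed between the lines at 2 ribosomal protein genes by the interaction test. For RPL9 the PC3 change minus the MDA-MB-231 change was -0.73 on the log2 scale, and for RPL15 it was 0.25. At RPL15 the difference lay at the far end of the gene, and with start windows alone it was -0.01 (limma adjusted p = 0.927).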

How the results depend on the processing

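Of the single-gene calls recomputed under the alternatives, 702 kept direction and side of the threshold, 227 kept direction alone and 6 reversed. The reversals were RPL23 at MDA-MB-231 day 1 with whole peak widths (0.0216), RPL15 at PC3 day 1 with the 50000 highest-area peaks (-0.0031), RPL13A at PC3 day 10 with start windows (0.0576), RPL28 at PC3 day 10 with total-length scaling (-0.0081), RPL15 between the control lines with 500 bp windows (0.0084) and the RPL15 interaction with start windows (-0.0138). The cause was not tested. Counts of called genes changed as follows. PC3 day 1 against control (1): total-length scaling 21, no filter 3, highest-area peaks 0, 2 kb windows 3, start windows 0, lists left out 1 to 4. PC3 day 10 against control (11): total-length scaling 47, PC3 lists alone 6, lists left out 5 to 11, with 6 without control replicate 1 and 5 without control replicate 3. PC3 day 10 against day 1 (2): no scaling 4, total-length scaling 4, 500 bp windows 4, 2 kb windows 1, whole widths 1, PC3 lists alone 1, lists left out 2 to 4. MDA-MB-231 day 1 against control (9): total-length scaling 39, highest-area peaks 5, 500 bp windows 4, lists left out 1 to 7. MDA-MB-231 day 10 against control (2): no scaling 7, total-length scaling 17, 100 bp added 1, 2 kb windows 1, start windows 0, MDA-MB-231 lists alone 4, lists left out 0 to 2. MDA-MB-231 day 10 against day 1 (2): 500 bp windows 0, lists left out 0 to 3. Between control lines (26): 500 bp windows 17, start windows 12, lists left out 20 to 25. Interaction at day 1 (0): no scaling 2, and 1 each with 100 bp added, no filter, highest-area peaks, 2 kb windows and whole widths, lists left out 0 to 1. Interaction at day 10 (2): total-length scaling 4, highest-area peaks 4, 500 bp windows 1, 2 kb windows 1, whole widths 6, start windows 1, lists left out 1 to 4, and no scaling turned the split to 2 positive and 0 negative. With a replicate block the counts were 2 at PC3 day 1 and 4 for the day 10 interaction, and 9 at MDA-MB-231 day 1, where the numbers pair the lists. It moved no other count by more than 1.5 times.

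The median area percentile with start windows was 64.3 in PC3 control, 58.8 at PC3 day 1, 60.7 at PC3 day 10, 57.8 in MDA-MB-231 control, 52.2 at day 1 and 57.6 at day 10. With 2 kb windows it was 67.6 in PC3 control and 66.8 at PC3 day 10, and with 500 bp windows 66.7 at PC3 day 10, 61.7 at MDA-MB-231 day 1 and 63.5 at MDA-MB-231 day 10. The median width was 996 bp at PC3 day 10 with the highest-area peaks and 946 bp at MDA-MB-231 day 1 with start windows. Depth is unknown, so a missing peak cannot be told apart from a shallow library.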

Other observations

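Ribosome biogenesis genes and translation factors, tested in the same limma fit, had the following calls. At PC3 day 1, 2 of 26 biogenesis genes (7.69%) were higher and none was lower, where 4.06% of all genes were called higher. These were EIF6, which keeps the subunits apart (log2 change 0.30, limma adjusted p = 0.0263), and POLR1A, the largest subunit of RNA polymerase I (0.32, limma adjusted p = 0.0136). At PC3 day 10, 2 of 26 (7.69%) were higher and 2 lower, shares below the 9.97% and 10.4% of all genes. EIF6 (0.39) and POLR1A (0.27) rose, and LTV1, needed for export of the small subunit (-0.49), and WDR12, of large subunit maturation (-0.25), fell. The PC3 comparisons share their control lists.

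In MDA-MB-231, BYSL, which acts in small subunit assembly, was the 1 biogenesis gene called at day 1. It had 516, 1397 and 1170 bp in the MDA-MB-231 day 1 lists and was listed at 0 bp in the other 15 lists of both lines. BYSL passed the filter of 500 bp in 3 or more lists only through these day 1 lists. Its calls against control, against day 10 and against the PC3 change follow from that choice and add no support. At PC3 day 10, 1 of 25 genes for translation factors and related TOP mRNAs (4%) was lower, below the 10.4% of all genes. It was EEF2, the factor that moves the ribosome along the mRNA (-0.81, limma adjusted p = 0.0198). Another 1 (4%) was lower at MDA-MB-231 day 1, EEF1G, a subunit of the elongation factor 1 complex (-0.43, limma adjusted p = 0.0253), where 2.7% of all genes were called lower.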
